A study of Homo sapiens with 4 samples.

Results

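Target sites that had escaped editing at every one of their 3 cut sites were examined in A549, a cell line from a human lung adenocarcinoma, after it had been fitted with a Cas9 lineage recorder. They were chosen as the entries of the allele table, 1 for each cell and integrated target site copy, in which all 3 cut sites were called uncut, and 122831 of 301829 alleles (40.7%) met this rule. All cells shared 1 history. They expressed Cas9 constitutively, held many lentiviral copies of a GFP target site and received 3 guide RNAs whose mismatches slow the cutting, and no group served as a control without Cas9 or the guides. The authors deduced that some of the guides were defective in Clone 1 and left this clone out of their trees. The population grew from a few founder cells, passed through a first and a second split, and ended as the final plates 11, 10, 01 and 00, each measured in 1 library of target site transcripts. The digits of the plate names were read as the first and the second split, which the sources used here do not spell out.

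A Cas9 lineage recorder writes heritable insertions and deletions (indels) into DNA as cells divide. Once a cut has been repaired with an indel, the guide no longer matches and the site is not cut again. An uncut site is thus the starting state and can be left but not regained. A fully uncut target site therefore holds no lineage information yet, and its cut sites can take later marks where the matching guides work. Each integrated copy is told apart by an integration barcode (intBC), a random run of 14 bases in the same transcript, and a clone is a founder's progeny, known by its own set of intBCs. The 11 clones held 104 intBCs, none of them in more than 1 clone. Genomic positions of the copies are not given in the sources used here.

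The call at each cut site spelled 5 bases on either side of the expected cut. The usual uncut calls are shown because they are the sequence state that defines these alleles, with the bases after the cut in capitals.

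cut site 1: ccgaaAAATG
cut site 2: gatatCTCTG
cut site 3: attcgCGGAG

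These strings made up 99.7%, 99.2% and 99.7% of the uncut calls at cut sites 1, 2 and 3. The intBCs with the highest and the lowest share of fully uncut alleles are shown next, for the clones that held over 20 such alleles. They mark the ends of the spread between copies in the same clone. Every base of a barcode identifies it, so all are in capitals.

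Clone 1, highest: TCTTTATTCTCGAC
Clone 1, lowest: TGGACCTAAGTTAG
Clone 2, highest: AAAACTGCTCTAAT
Clone 2, lowest: CCTTTAACTTAGGG
Clone 3, highest: TCGTGGCCGGCGTA
Clone 3, lowest: TCTCCGTTAGACAT
Clone 4, highest: GCGTCCCTCATTCG
Clone 6, highest: AGAAGTTACATCAC
Clone 6, lowest: AGGTATTTCTTGGG
Clone 10, highest: TCACATTCTAACTT

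In Clone 4 and Clone 10 the lowest share was 0 and was held by 3 and 2 intBCs.

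The libraries held 679952 to 812480 UMIs, which are tags that count single transcript molecules, in 8031 to 9337 cells. Of the UMIs in a library, 35.0% to 38.4% came from fully uncut alleles. A cell barcode sequence occurred in more than 1 library 621 times. In 14.0% of these cases the cells were of 1 clone, against 18.1% of random pairs of cells, and without those cells 40.7% of alleles were fully uncut.

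Most fully uncut alleles were in 3 of the 11 clones. Clones 1, 2 and 3 held 98.8% of them and 82.7% of all alleles of the 11 clones, and 1480 lay elsewhere. In Clone 1, 51177 of 60765 alleles were fully uncut (84.2%, 95% exact Clopper-Pearson interval 83.9 to 84.5%). In Clone 3 the share was 48.8% (48.5 to 49.1%, 93338 alleles), and in Clone 2 it was 25.9% (25.6 to 26.2%, 94993 alleles). The intervals allow for counting error alone, because the cells of a clone inherit alleles from shared ancestors and are not independent. The intervals of the 3 clones lay far from each other.

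The other clones ranged from partly uncut to fully edited. Clone 10 kept 804 fully uncut alleles of 4277 (18.8%, 17.6 to 20.0%), and Clone 6 kept 622 of 5920 (10.5%, 9.74 to 11.3%). Clone 4 had 53 of 15425 (0.344%, 0.257 to 0.449%). In Clone 5, 1 allele of 10344 met the rule, it rested on 1 UMI, and none of its 3 uncut calls had the usual flanking bases. None was found in Clones 7, 8, 9 and 11, where counts of 0 allow shares of up to 0.0782%, 0.0430%, 0.0675% and 0.367%. In all, 64 of the 104 intBCs had at least 1 fully uncut allele, and 72.2% of the cells in the 11 clones carried at least 1.

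The 3 cut sites did not contribute equally. In Clone 1, cut sites 1 and 2 were uncut in 99.9% of alleles each and cut site 3 in 84.3%, so that cut site 3 alone separated nearly all fully uncut alleles from the rest. This is the clone in which guides were deduced to be defective, so its share does not describe a full set of working guides. Of its 9516 alleles with exactly 2 uncut sites, 99.8% were edited at cut site 3. In the other clones with over 20 fully uncut alleles, cut site 2 was the least often uncut. It was uncut in 44.1% of alleles in Clone 2, against 71.5% at cut site 1 and 73.9% at cut site 3. Clone 3 had 64.3% at cut site 2, with 78.6% and 78.9% at cut sites 1 and 3. Cut site 2 was also the lowest in Clone 4 (9.03%, with 34.9% and 31.1% at cut sites 1 and 3), in Clone 6 (29.6%, with 46.9% and 65.0%) and in Clone 10 (36.7%, with 54.5% and 75.1%). These shares are part of the rule, and no test was made of them.

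Alleles 1 edit away from the rule, with exactly 2 uncut sites, numbered 83565 (27.7% of all alleles). A further 18.6% had 1 uncut site and 13.1% had none. Among the alleles with 2 uncut sites in Clones 2 to 11, the edited site was cut site 2 in 58.8%, cut site 1 in 21.7% and cut site 3 in 19.5%. Clone 2 had 42.5% of its alleles in this class and Clone 3 had 30.1%, against 15.7% in Clone 1.

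Copies of the target site in the same clone had shares that differed far more than counting error. Counting error treats cells as independent, whereas the cells of a clone inherit edits from shared ancestors. Whether the copies differed in how readily they were cut was therefore not tested. In Clone 1 the 9 intBCs ran from 78.6% fully uncut in TGGACCTAAGTTAG to 91.7% in TCTTTATTCTCGAC, with an SD of 4.27 percentage points where counting alone gives 0.478. In Clone 2 the 17 intBCs ran from 7.05% in CCTTTAACTTAGGG (465 of 6600 alleles) to 54.8% in AAAACTGCTCTAAT (879 of 1605), with an SD of 12.3 against 0.679 from counting. In Clone 3 the 16 intBCs ran from 20.7% in TCTCCGTTAGACAT to 63.3% in TCGTGGCCGGCGTA, with an SD of 13.5 against 0.639. The ranges of Clones 2 and 3 overlapped although their pooled shares lay well apart. The highest intBC of Clone 2 was detected in only 19.1% of its cells, at a mean of 3.27 UMIs. The lowest was detected in 78.6%, at a mean of 5.02 UMIs. Among the intBCs of Clone 2 in at least 50% of cells, the highest share was 45.9%.

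In Clone 10 the spread was widened by 1 intBC but remained without it. The 12 intBCs ran from 0 of 362 alleles in AGCAACTTCCTAGT, where cut site 1 was edited in every allele, to 76.7% in TCACATTCTAACTT, with an SD of 21.5 against 1.80 from counting. Without TCACATTCTAACTT, whose fully uncut alleles all had an unusual string at cut site 2, the highest was 36.0% and the SD 11.3. In Clone 6 the range was 0.416% in AGGTATTTCTTGGG (6 of 1444 alleles) to 23.3% in AGAAGTTACATCAC (218 of 936). In Clone 4 the highest was GCGTCCCTCATTCG at 1.28% (26 of 2026), and 6 of its 9 intBCs had any.

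In the lowest intBCs of Clones 2 and 3, 1 edited allele filled much of the intBC. In CCTTTAACTTAGGG, 1 allele with a deletion of 2 bases at cut site 2 made up 41.0% of all alleles. In TCTCCGTTAGACAT, a deletion of 31 bases at cut site 2 made up 36.0%. In TGGACCTAAGTTAG of Clone 1, the most frequent edited allele made up 12.1%. The most frequent edited allele took 2.49% in TCTTTATTCTCGAC, 2.93% in AAAACTGCTCTAAT and 9.03% in TCGTGGCCGGCGTA, where the larger uncut share leaves less room for any edited allele. Across the intBCs of a clone, the share of fully uncut alleles had Spearman correlations with the mean UMI count of 0.52 in Clone 1, -0.09 in Clone 2 and 0.06 in Clone 3 (9, 17 and 16 intBCs of the same cells and libraries, a description only). The correlations with the share of cells in which the intBC was detected were 0.23, 0.01 and 0.09.

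If the cut sites of an intBC were edited independently in unrelated cells, the share of fully uncut alleles would on average equal the product of its 3 uncut shares. The cells of a clone inherit edits from shared ancestors, and the plates were pooled. Both can move a share off the product, so dependence between cuts was not tested. The observed share was above that product in 51 intBCs, below it in 20 and equal in 33, all of which had a site that was never uncut. Averaged over intBCs, Clone 3 had 49.0% observed against 42.7% expected, an excess of 6.27 percentage points (SD 5.40, 16 intBCs, 15 of them above). Clone 2 had 27.0% observed against 24.3% expected (excess 2.71, SD 4.86, 13 of 17 above). Clone 10 had 17.8% against 16.7% and Clone 6 had 11.8% against 11.1%. Clone 1 had 83.9% against 83.7%, with all 9 intBCs above but by 1.13 points at most. Clone 4 lay below, with 0.331% observed against 0.571% expected. In Clone 8 the products would give 3.51 alleles and 0 were seen.

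Over the 11 clones the mean excess was 0.97 percentage points (SD 1.95), positive in 6 clones and negative in 4. It did not pass an exact two-sided sign-flip permutation test over clones (p = 0.0859, adjusted p = 0.15 over 7 tests). Clones 5, 7, 9 and 11 entered with 0.0095, 0, -1.6e-05 and -0.00078 points, since their observed and expected shares were both near 0. Their signs therefore carry little information, and that of Clone 5 rested on its 1 allele. In Clone 1, cut sites 1 and 2 were uncut in 99.9% of alleles, so the product nearly equals the share at cut site 3. The excess of Clone 1 is thus held near 0, and its sign carries little information too. The excess is computed from the calls that define these alleles, so it describes those calls and is no separate support. In the 6 clones with at least 20 fully uncut alleles, a selection made after seeing the data, the mean was 1.78 points, above 0 in 5 (exact p = 0.0938). Deletions that span cut sites are written at each of them. Leaving out alleles with an indel at several sites, which by construction removes edited alleles and lowers the observed share relative to the product, gave a mean of -0.94 points (exact sign-flip p = 0.0879, 3 of 10 clones above 0), with 0.26 in Clone 3 and -1.54 in Clone 2. Clone 10 then had -1.59 and Clone 6 had -4.83.

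In the intBCs with the largest excess of Clones 2 and 3, 1 long deletion was common. The intBC of Clone 2 named below was detected in only 40.2% of the cells of its clone, at a mean of 2.37 UMIs. In GGAAAAGCGCCACC of Clone 3, chosen after its value was seen, 22.1% of alleles were fully uncut against 3.65% expected, a ratio of 6.06. A deletion of 105 bases, written at all 3 cut sites, made up 54.9% of its alleles and removes the uncut state of all sites at once. The next largest excess, also in Clone 3, was in CGATCTCTAAGGAC, with 47.5% observed against 33.8% expected, where a deletion of 82 bases across cut sites 1 and 2 made up 21.4%. The largest excess of Clone 2 was in TCTCCCTTTTTGTT (23.4% against 14.4%), where a deletion of 54 bases across cut sites 2 and 3 made up 31.1%.

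The largest deficit was in CCTCGATTGCACTA of Clone 2, with 12.2% observed against 21.4% expected. Its most frequent edited allele, a deletion of 1 base at cut site 3 with the other sites uncut, made up 17.9%. Of the 821 fully uncut alleles of this intBC, 273 and 144 carried 2 unusual strings at cut site 2, on plates 01 and 00 alone. Its observed and expected shares both count these calls as uncut. TTCCTCCCACTTAA of Clone 2 had 10.1% against 15.9%, and a deletion of 19 bases at cut site 2 alone made up 42.0% of it. In Clone 6, AGGTATTTCTTGGG had 0.416% against 5.83%.

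By pairs of cut sites, the excess of both uncut in Clone 3 was 4.40 points for cut sites 1 and 2, 3.21 for cut sites 2 and 3 and 1.26 for cut sites 1 and 3. In Clone 2 it was 0.86, 2.62 and -0.11 for the same pairs. Clone 6 had -0.29, 1.65 and 2.13 for cut sites 1 and 2, 2 and 3, and 1 and 3, and Clone 4 had -0.44, -1.02 and -0.59. For the pairs 1 and 2, 2 and 3, and 1 and 3, Clone 10 had 1.16, 1.06 and -0.13, and Clone 1 had 0.064, 0.138 and 0.052. The pair of cut sites 1 and 3 was thus the lowest in Clones 1, 2, 3 and 10, but not in Clones 4 and 6. No full order of the pairs was shared by all these clones.

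Fully uncut alleles carried fewer UMIs than edited alleles of the same intBC in most clones. The comparison used the 55 intBCs with at least 20 alleles of each kind, in 6 clones, and counted as edited an allele with at least 1 indel. In Clone 3 the mean was 9.53 UMIs for fully uncut and 10.9 for edited alleles (log2 ratio -0.18, SD 0.15, lower in 16 of 16 intBCs). In Clone 2 it was 7.08 and 8.28 (-0.21, SD 0.18, lower in 16 of 17). Clone 6 had 8.73 and 11.5 (-0.39, SD 0.10, 4 of 4) and Clone 10 had 11.7 and 13.9 (-0.32, SD 0.32, 6 of 8). Clone 4 had 10.3 and 16.1 in 1 intBC. Clone 1 went the other way, with 8.96 and 8.74 (0.05, SD 0.10, lower in 4 of 9).

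The mean over the 6 clones was -0.28 on the log2 scale (SD 0.23), below 0 in 5, and did not pass the exact sign-flip test (p = 0.0625, adjusted p = 0.146), where 0.0312 is the smallest p that 6 clones can give. With alleles of at least 5 UMIs it was -0.25, below 0 in all 6 (exact p = 0.0312), but this minimum selects alleles on the measure that is compared.

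Reads per UMI, the number of times a tagged molecule was sequenced, were lower for fully uncut alleles in all 6 clones. Clone 3 had 133 reads per UMI for fully uncut and 149 for edited alleles, Clone 2 had 127 and 137, Clone 10 had 126 and 140, Clone 6 had 104 and 125, and Clone 4 had 157 and 175. Clone 1 differed least, with 132 and 135. The mean log2 ratio was -0.15 (SD 0.07, n = 6 clones), with an exact sign-flip p = 0.0312, the smallest possible, and an adjusted p of 0.146. Among the 55 intBCs, 50 were lower. Leaving out any clone raised the p to 0.0625, the smallest that 5 clones allow.

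Both differences moved with how much shorter the edited alleles were. Against edited alleles whose net length change was at most 5 bases either way, fully uncut alleles had a mean log2 ratio of -0.04 in UMIs (SD 0.07, 6 clones) and -0.0040 in reads per UMI (SD 0.013). Against alleles 6 to 20 bases shorter the ratios were -0.21 in UMIs and -0.10 in reads per UMI. Against alleles 21 to 50 bases shorter they were -0.26 and -0.19, and against alleles over 50 bases shorter -0.47 and -0.39. Reads per UMI were below 0 in all 6 clones in each of these 3 classes, and UMIs in all 6 in the last class and in 5 in the others, where Clone 1 was above 0 (0.12 and 0.04). Against alleles over 5 bases longer, measured in 3 clones, fully uncut alleles had more of both, with 0.19 in UMIs and 0.16 in reads per UMI. These length classes were drawn up after the first comparison was seen, and they are given without a test.

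The share of fully uncut alleles by the UMIs behind an allele differed between clones. In Clone 6 it was 16.5% among alleles of 1 UMI and 4.23% among those of 20 or more. In Clone 2 the corresponding shares were 28.3% and 18.1%, and in Clone 3 they were 47.6% and 38.6%, with a highest value of 52.4% at 5 to 9 UMIs. In Clone 1 the share was 77.4% at 1 UMI and 84.2% to 85.3% above that. In Clone 10 it was 14.2% at 1 UMI, 25.1% at 5 to 9 and 13.2% at 20 or more. These shares pool intBCs that differ in UMIs and in uncut share. Averaged over intBCs, Clone 10 had 20.8% at 1 UMI, 22.6% at 5 to 9 and 13.6% at 20 or more. At 1 UMI and at 20 or more, the averages were 15.7% and 5.27% in Clone 6 and 29.2% and 20.4% in Clone 2. They were 49.2% and 40.0% in Clone 3 and 79.1% and 83.6% in Clone 1.

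Between the plates of the first split, clone shares differed little but single intBCs differed a great deal. In Clone 1, 85.8% and 87.2% of alleles were fully uncut on plates 11 and 10, against 82.8% and 82.4% on plates 01 and 00. In Clone 2 the shares were 26.9% and 27.3% on plates 11 and 10, against 23.2% and 23.7% on plates 01 and 00. In Clone 3 they were 47.3% and 48.6% on plates 11 and 10, against 49.1% and 49.9% on plates 01 and 00. Plates 11 and 10 were thus both above plates 01 and 00 in Clones 1 and 2, and both below them in Clone 3. In Clone 10 the 4 plates lay between 18.3% and 19.4%, in Clone 6 between 9.43% and 11.4%, and in Clone 4 between 0.108% and 0.422%, with no such order in Clones 6 and 10.

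Averaged over intBCs, plates 1 minus plates 0 of the first split gave positive differences of 2.77 percentage points in Clone 1 and 2.76 in Clone 2. The differences were negative in Clone 3 (-2.51), Clone 4 (-0.22), Clone 6 (-1.22) and Clone 10 (-2.21). The mean over 9 clones was -0.07 points (SD 1.87), and the exact sign-flip test did not find a common direction (p = 0.969, adjusted p = 1). Clones 5, 7 and 11 entered at exactly 0 and carry no sign, so the smallest p this sign-flip test could give was 0.0312. Each plate had 1 library, so plate and library cannot be told apart.

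Within a clone, the intBCs moved in both directions. In Clone 3, 8 of 16 intBCs were higher and 8 lower on first-split plate 1 than on plate 0, and 8 of them differed by over 10 points. The median size of the difference was 10.9 points, against 3.02 between plates 11 and 10 and 1.80 between plates 01 and 00. In Clone 2 these medians were 6.53, 1.35 and 1.60, and in Clone 1 they were 4.63, 2.06 and 1.53. In Clone 10 the medians were 8.31, 3.38 and 3.01, and in Clone 6, with 5 intBCs, 1.17, 1.56 and 0.83. No intBC of Clones 1, 2 and 3 differed by over 10 points between plates of a second split. In Clone 10, 1 did, with 51.2% on plate 11 and 28.1% on plate 10 in TTGTCCATAACGGT.

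The intBCs described next were chosen after their values were seen, for their large differences between the plates of the first split. In CGATCTCTAAGGAC of Clone 3, 26.5% and 26.4% of alleles were fully uncut on plates 11 and 10, against 65.8% and 65.9% on plates 01 and 00. The deletion of 82 bases in this intBC made up 46.1% of alleles on first-split plate 1 and was at 0 on plate 0. In GTTTCCCGGTTTGT of Clone 3 the shares were 36.4% and 29.9% on plates 11 and 10, against 71.9% and 66.9% on plates 01 and 00. A deletion of 54 bases across cut sites 2 and 3 made up 31.5% of its alleles on first-split plate 1 and 0.909% on plate 0.

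Other intBCs were higher on first-split plate 1. In TGGACCTAAGTTAG, the lowest intBC of Clone 1, 91.6% and 90.7% were fully uncut on plates 11 and 10, against 69.4% and 68.5% on plates 01 and 00. A deletion of 2 bases at cut site 3 made up 3.16% there on first-split plate 1 and 18.9% on plate 0. In TTCCTCCCACTTAA of Clone 2, 547 of 3465 alleles (15.8%) were fully uncut on first-split plate 1 and 0 of 1932 on plate 0, which allows up to 0.155%. The fully uncut state of this copy was therefore not detectable on 1 side of the first split.

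The second splits gave no common direction either. Plates 01 minus 00 averaged 0.18 points (SD 0.93, 8 clones, exact sign-flip p = 0.625, adjusted p = 0.875), and plates 11 minus 10 averaged -0.01 (SD 0.95, 11 clones, p = 1, adjusted p = 1). The contrast of 11 with 10 and that of 01 with 00 differed by -0.19 points over 8 clones (SD 0.81, exact p = 0.969).

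Cells in which every detected target site was fully uncut were almost all of Clone 1. They numbered 2706 of its 8719 cells (31.0%, exact interval 30.1 to 32.0%), against 2678 expected from the shares of its intBCs, and had 2 to 9 intBCs detected with a median of 7. Such cells were 34.8% and 39.1% of Clone 1 on plates 11 and 10, against 26.9% and 26.2% on plates 01 and 00. Clone 3 had 2 such cells and Clone 6 had 1, in which a single intBC was detected.

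Cells without any fully uncut allele were more frequent than the shares of the intBCs predict in Clones 2 and 3. Clone 2 had 522 such cells (6.21%) against 309 expected, and Clone 3 had 21 (0.288%) against 2.69 expected. Those of Clone 3 were mostly from 1 library, with 16 on plate 01 and 2, 1 and 2 on plates 11, 10 and 00. The expected counts pool the plates, between which the shares of single intBCs differed. In Clone 6 there were 1186 (69.6%) against 1157 expected, and in Clone 10 there were 47 (9.85%) against 46.3. Clone 1 had none.

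The number of fully uncut copies per cell averaged 6.25 in Clone 3 and 5.87 in Clone 1, while Clone 2 had 2.93, Clone 10 had 1.69 and Clone 6 had 0.365. Its variance over cells was 1.32 times the expected one in Clone 2, 1.24 times in Clone 3 and 1.12 times in Clone 6, but 1.04 in Clone 1, 1.03 in Clone 10 and 0.984 in Clone 4. The mean log2 ratio over the 6 clones was 0.16 (SD 0.17), above 0 in 5, and did not pass the exact sign-flip test (p = 0.0625, adjusted p = 0.146).

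A small set of alleles was called uncut although the bases beside the cut were not the usual ones. They numbered 1420 (1.16% of fully uncut alleles), with other flanks at cut site 1 in 340, at cut site 2 in 1021 and at cut site 3 in 295. They were concentrated in a few intBCs, chosen after their values were seen. The strings are shown since in these copies the call and the sequence differ, with the bases that depart from the usual string in capitals.

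Clone 10, TCACATTCTAACTT, cut site 2: Tatatctctg
Clone 10, ATAGGTTTTGCGCG, cut site 1: ccgaCaaatg
Clone 2, CCTCGATTGCACTA, cut site 2: gatatGGTtC
Clone 2, CCTCGATTGCACTA, cut site 2, second string: gaCCATGTtg
Clone 2, CTGCCAGTCGTGGC, cut site 1: ccgaaCGaAT
Clone 2, CTGCCAGTCGTGGC, cut site 2: TGAaCcAGAg
Clone 2, CTGCCAGTCGTGGC, cut site 3: attTTcggag

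In TCACATTCTAACTT, the most uncut intBC of Clone 10, all 342 fully uncut alleles carried G1T at cut site 2, with positions counted from the first base of the printed string. They came from all plates, with 31, 41, 127 and 143 alleles on plates 11, 10, 01 and 00. Cut site 2 of this intBC was uncut in 99.6% of alleles, against 8.22% to 54.8% in the other 11 intBCs of the clone. Without this intBC, 12.1% of the alleles of Clone 10 were fully uncut. In ATAGGTTTTGCGCG of the same clone, A5C at cut site 1 was present in 24 of 26 fully uncut alleles, all 24 from plates 01 and 00. Whether these bases were in the integrated copy from the start was not tested.

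The altered strings of Clone 2 came from 1 side of the first split. In CCTCGATTGCACTA, 273 and 144 of the 821 fully uncut alleles carried the first and the second string, none of them on plates 11 and 10. With only the usual strings counted as uncut, the share fully uncut in this intBC was 4.91% on first-split plate 1 and 7.92% on plate 0, against 5.04% and 26.3% by the rule. In CTGCCAGTCGTGGC, 86 cells carried alleles altered at all 3 cut sites, again on plates 01 and 00 alone. In these, the 5 bases after cut site 1 were the reverse complement of the usual 5 before cut site 3, and the 5 bases after cut site 2 were the reverse complement of the usual 5 there.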

How the data were processed

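Target site transcripts were amplified from single-cell 3' libraries of 4 plates. The authors deposited, for every allele, its count of UMIs and of reads without normalization. Per the labels and the paper, they used Cell Ranger 2.0.1 for cell barcodes, built a consensus per UMI and aligned it with the unedited target site. Sparse UMIs, cells and intBCs were removed, 1 allele per cell and intBC was kept, clones were called, and doublets within and between clones were removed by the authors from conflicting alleles and intBC sets. No doublet caller was run here. Indels are deposited as text at each cut site, and an allele was taken as fully uncut where none was written at any site. 169 alleles (0.0560%) with no call at 1 or more sites stayed in the denominators and were not counted as edited. The 13 intBCs outside the clones, which held no fully uncut allele, entered only the series total. Trees were not used here.

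Shares were averaged over the intBCs of a clone for each test, the clone being the unit, tested by exact sign-flip permutation (two-sided), with Benjamini-Hochberg adjustment over 7 tests (Python 3.11.15, pandas 2.3.3, scipy 1.17.1). Clones entered plate comparisons with at least 20 cells on both sides. The expected variance per cell came from the intBC shares and the intBCs detected in that cell. Scripts were tested on simulated data. Depth was 679952 to 812480 UMIs per library. Intervals are exact Clopper-Pearson at 95%, and limits for a count of 0 are 3 counts of the total. Named items were every clone, cut site and plate and the highest and lowest intBC of a clone, and others were chosen after their values were seen. The members and lists were chosen with earlier results of these data known. Alternatives covered 5 UMIs per allele, intBCs in 50% of cells, pooling over intBCs, deletions across sites and leaving out each clone. Alternatives chosen after seeing the data were alleles with no call counted as uncut, the usual flanking bases in each test, barcodes of 1 library only, edited alleles with short indels, UMIs and reads per UMI by plate, and the clones with at least 20 fully uncut alleles.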

Additional observations from a re-analysis of the deposited data

How the results depend on the processing

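The p-values rest on 6 to 11 clones, and clones without fully uncut alleles entered the plate comparisons at 0 and carry no sign. Under the settings below, passing means an exact sign-flip p below 0.05 before adjustment, with no allowance for the many settings run. Each plate has 1 library, so small differences were not detectable and spread between libraries could not be measured. With alleles of at least 5 UMIs, the UMI difference was -0.25 and passed an exact p of 0.05, although this minimum selects on the UMIs compared, the share over all clones was 40.2%, and the first-split and 11 minus 10 differences turned to 0.077 and 0.18 points. With intBCs in at least 50% of cells these 3 were 41.0%, 0.12 and 0.096. Pooling over intBCs gave a first-split difference of 0.56. Averaging over intBCs gave a share of 21.9%, all cells as denominator 29.8% and the usual flanks alone 40.3%, against 40.8% by the rule in the 11 clones. With the usual flanks alone the share of Clone 10 was 10.1%, against 18.8%, and the first-split difference was 0.21. With alleles of no call as uncut, chosen after seeing the data, the first-split and 11 minus 10 differences were 0.038 and 0.086, and with barcodes of 1 library the 11 minus 10 difference was 0.0088. None of the plate differences passed the test under any setting.

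Without indels at several cut sites the excess over independence was -0.94 points. This setting leaves fully uncut alleles in and takes out only edited ones, which lowers the value. On plate 00 alone it was 1.13 and passed, while on plates 11, 10 and 01 it was 0.91, 0.90 and 0.98 and did not (exact p = 0.141, 0.0938 and 0.188). Against indels of at most 5 bases in sum, UMIs differed by -0.043 (exact p = 0.375, 4 of 6 clones below 0). Reads per UMI then differed by -0.0063 and did not pass, where the main comparison passed only before adjustment. Without indels at several sites reads per UMI differed by -0.075 and UMIs by -0.16. On plates 11, 10, 01 and 00 alone reads per UMI differed by -0.11, -0.13, -0.13 and -0.14, with 5 clones, too few to pass.

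Leaving out each clone gave 0.44 to 1.09 for the excess (it passed without Clone 4), -0.17 to -0.12 for reads per UMI, -0.43 to 0.23 for the first split, -0.025 to 0.36 for 01 minus 00 and -0.18 to 0.17 for 11 minus 10. The log2 ratio of observed to expected share, over 7 clones, was led by the 1 allele of Clone 5. Clustering in cells was 0.51 in cells with every intBC detected (4 clones), against 0.16, and stayed above 0 and short of the threshold under every setting run. The plate comparisons were paired within clone and intBC, and no further pairing by replicate number applies, as each plate is 1 library.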
